A study of Mus musculus with 2 samples.

Results

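The clustered protocadherins are a family of cell-surface adhesion genes that lie side by side on mouse chromosome 18. They were taken as all gene records of the GENCODE M21 annotation (mm10) on that chromosome whose symbols begin with Pcdha, Pcdhb or Pcdhg. There were 58 such records among 55413 gene records on the primary chromosomes. Of these, 57 were protein-coding and 1, Pcdhgb8, was annotated as a polymorphic pseudogene. All lie on the plus strand between positions 36930184 and 37841873. By position and symbol they comprised 12 alpha alternates, 22 beta genes, 12 gamma A and 7 gamma B alternates, and 5 C-type genes (Pcdhac1, Pcdhac2, Pcdhgc3, Pcdhgc4 and Pcdhgc5). The symbol Pcdha11 is carried by 2 records, and the one that starts at 37005203, nearest to the RefSeq start of Pcdha10, is called Pcdha10 here.

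Open chromatin was mapped by DNase-seq, which sequences the ends of DNA fragments cut by the nuclease DNase I, in tissue of the frontal cortex taken from female B6CASTF1/J mice at 14 days of age. There was 1 group of 2 libraries from separate biosamples that carry the same donor label, so the spread between them may be partly technical and no test between conditions was possible. B6CASTF1/J animals are first-generation hybrids that carry a C57BL/6J and a CAST/EiJ genome, and the files do not separate the alleles. Both samples are also marked 3x in a label, without a word on what this stands for.

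Clustered protocadherins are homophilic: a given combination of isoforms on a neurite binds best to the same combination, which lets neurites of 1 neuron recognise and avoid each other. Each alternate gene has its own promoter, and a single neuron switches on only a few alternates, whereas the C-type genes are expressed more widely. Alternate and C-type variable exons of the alpha and gamma clusters are spliced to constant exons shared by their cluster, and beta genes have no constant exons. The factor CTCF and the cohesin ring link alternate promoters to distant enhancers, and DNA methylation of the promoters blocks CTCF.

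The deposited peak lists held 93641 peaks in replicate 1 and 66196 in replicate 2. The strength of a peak is the authors' depth-normalised signal, whose scale is not stated. All strengths were whole multiples of a smallest step (0.00670 in replicate 1 and 0.00858 in replicate 2), and the median promoter peak of protein-coding genes held 403 and 218 such steps. Pan-neuronal genes had promoter peaks in both libraries for 5 of 5 genes and forebrain transcription factor genes for 3 of 4. Astrocyte genes had such peaks for 3 of 5, oligodendrocyte for 1 of 5, endothelial for 1 of 5, microglial for 0 of 5 and liver for 0 of 4.

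Most clustered protocadherin promoters had no peak. A promoter was counted as open when a peak touched a window reaching 500 bp to each side of an annotated transcription start site. In both libraries 11 of the 58 members (19.0%) were open, against 58.8% of 21938 protein-coding genes. Taken singly, 18 members were open in replicate 1, against 63.8% of protein-coding genes, and 11 in replicate 2, against 59.2%. Replicate 1 thus had 7 more, replicate 2 alone had none, and 40 members had a peak in neither library. Many members have a single annotated start, and among protein-coding genes with 1 start 27.6% were open in both libraries. With the 5′ end of each record as its only start, again 11 members were open in both, against 53.2% of protein-coding genes. Where members were open they were weak: their median strength was 0.536 in replicate 1 and 0.437 in replicate 2, against 2.70 and 1.87 for all open protein-coding promoters. In bulk tissue, fewer cells with an open promoter and less accessibility per cell cannot be told apart.

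**Figure D1:**
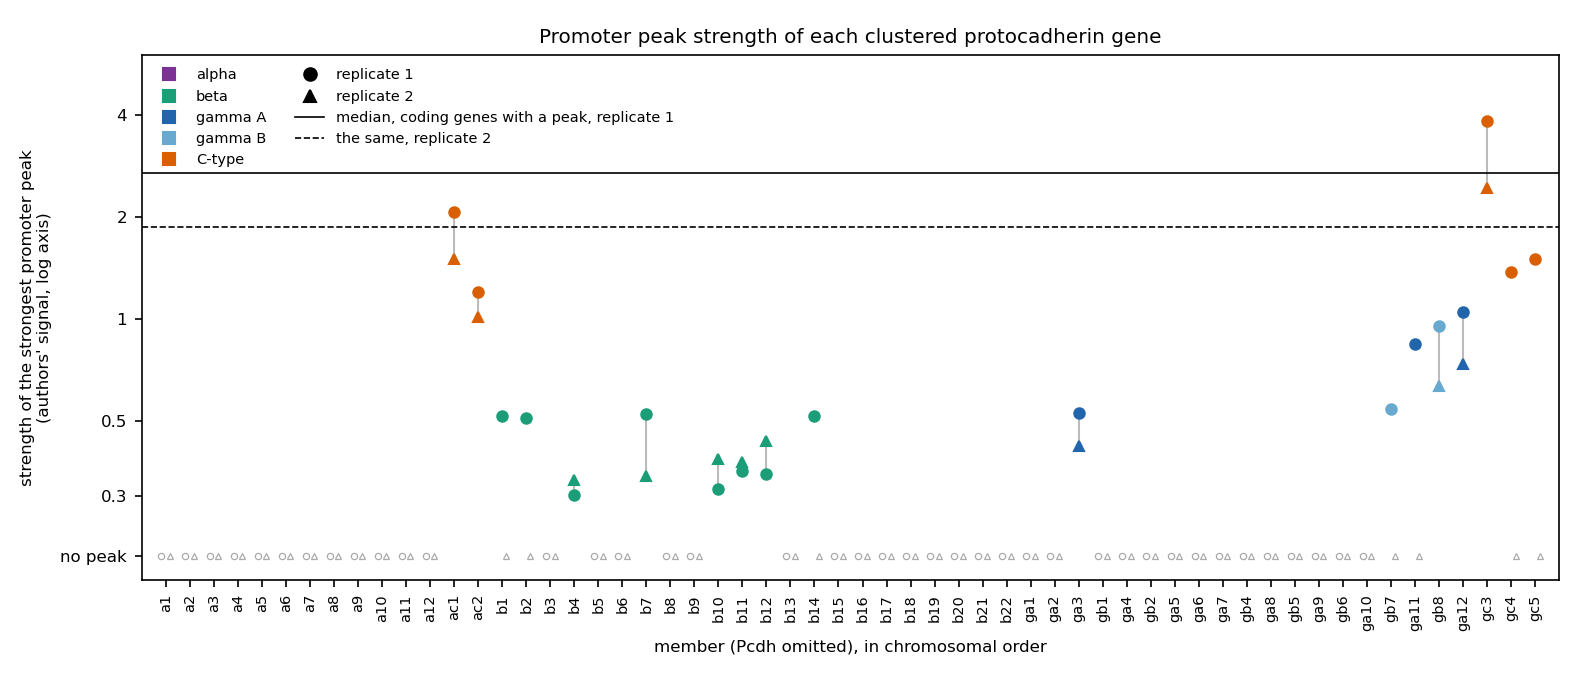
Strength of the strongest promoter peak (authors' signal, log axis) of each of the 58 members in chromosomal order, with circles for replicate 1, triangles for replicate 2 and open grey symbols where a library had no peak. Horizontal lines give the median over open protein-coding promoters (2.70 in replicate 1, 1.87 in replicate 2), and among the members only Pcdhgc3 lies above the line of its own library.

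Footprints and base-by-base cut rates gave similar counts. As for peaks, protein-coding genes had more annotated starts (median 3, against 1 in the members), so their windows often covered more sequence. Footprints, which are short protected stretches within cut DNA, lay in 10 promoter windows in both libraries, against 56.7% of protein-coding genes. Bases listed by the authors with a false discovery rate (FDR) below 0.05 for the cut rate lay in 13 windows in both libraries, against 59.8% of protein-coding genes. They lay in 21 windows in replicate 1, against 64.6%, and in 13 in replicate 2, against 60.3%. Those 13 were the 11 open members plus Pcdhb14 and Pcdhgc4, whose windows held 12 and 25 such bases in replicate 2.

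The C-type genes had the highest share of open promoters in the family: 5 of 5 were open in replicate 1 and 3 of 5 in both libraries (60%). The share in both libraries is near the 58.8% of protein-coding genes. Pcdhgc3, an isoform that in mouse cortex promotes dendrite branching, had the strongest promoter peak of the family. Its peak, at 37806221 to 37806480, measured 3.84 in replicate 1 and 2.44 in replicate 2, at percentiles 67.3 and 65.5 of open protein-coding promoters. Pcdhac1, the first alpha C-type gene, reached 2.06 and 1.50 at 37089881 to 37090100 (percentiles 39.1 and 38.8). Pcdhac2, which serotonergic axons need for their tiling in mice, reached 1.20 and 1.01 (percentiles 22.4 and 22.6). These 3 genes thus held nearly the same rank in each library, with the order Pcdhgc3, Pcdhac1, Pcdhac2 in both. Their windows held 982, 989 and 653 FDR-listed bases in replicate 1 and 519, 895 and 623 in replicate 2.

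The other gamma C-type genes were called in replicate 1 alone. Pcdhgc4, the isoform that interneuron survival depends on in mice, had a peak of strength 1.37 in replicate 1 and none in replicate 2. Pcdhgc5, an isoform found at a subset of synapses, had a peak of 1.50 in replicate 1 and none in replicate 2. FDR-listed bases numbered 645 for Pcdhgc4 and 525 for Pcdhgc5 in replicate 1, against 25 and 0 in replicate 2, and footprints numbered 8 and 4 against 0 and 0. Peaks of such strength were rarely missing from replicate 2 elsewhere: of 370 other protein-coding genes with a replicate 1 promoter strength between those of Pcdhgc4 and Pcdhgc5, 354 (95.7%) had a promoter peak in replicate 2. The pair was picked because it had none there, so no test was made.

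The 12 alpha alternates, Pcdha1 to Pcdha12, had no peak and no footprint in either library. Across the 159.8 kb from the window of Pcdha1 to that of Pcdhac1, 12 bases were FDR-listed in replicate 1 and 0 in replicate 2. A single base of a promoter window was among them, in Pcdha8, with an FDR of 0.0482. Alpha alternates resemble each other in sequence: between 72.6% and 92.5% of the 36-base stretches in their windows (median 79.5%) occur once in the reference genome, against a median of 100% in beta genes, 98.8% in gamma A, 84.0% in gamma B and 100% in C-type genes. The part of this in the missing alpha peaks was not tested. Over all classes the share ran from 85.4% to 100% (median 100%) in the 11 members open in both libraries and from 72.6% to 100% (median 97.0%) in the 40 members without a peak.

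Beta genes were open in 5 of 22 cases in both libraries, and all of these peaks were among the weakest promoter peaks of the genome. Pcdhb7 had strengths of 0.522 in replicate 1 and 0.343 in replicate 2. Pcdhb12 had 0.348 and 0.437, and Pcdhb10 had 0.315 and 0.386. Pcdhb11 and Pcdhb4 followed closely, at 0.355 and 0.377 for Pcdhb11 and at 0.301 and 0.335 for Pcdhb4. These values fall between percentiles 0.811 and 5.42 of open protein-coding promoters. Replicate 2 was the higher library in 4 of the 5 (all but Pcdhb7), and their median log2 ratio of replicate 1 over replicate 2 was −0.15, against 0.63 over open protein-coding promoters of all strengths. Other protein-coding genes with replicate 1 strengths of 0.301 to 0.355 and a peak in replicate 2 had a median replicate 2 strength of 0.347.

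Of the 8 beta genes open in replicate 1, 5 were open in replicate 2 and 3 were not. Elsewhere, weak promoter peaks of replicate 1 were often missing from replicate 2. Of 137 other protein-coding genes with a replicate 1 strength within the range of Pcdhb4, Pcdhb10, Pcdhb11 and Pcdhb12, 42 (30.7%) had a peak in replicate 2. These 4 members were picked because they had one, so the share is no more than a description. No other member had a replicate 1 strength in that range. Pcdhb1, which begins the beta cluster, was open in replicate 1 alone at 0.516, as were Pcdhb2 at 0.509 and Pcdhb14 at 0.516. Of 169 other protein-coding genes in the replicate 1 range of these 3 genes and Pcdhgb7, picked because they had no replicate 2 peak, 90 (53.3%) had one. Pcdhb3 and Pcdhb6 had no peak but 46 and 3 FDR-listed bases in replicate 1. The other 12 beta genes, Pcdhb5, Pcdhb8, Pcdhb9, Pcdhb13 and Pcdhb15 to Pcdhb22, had no peak, footprint or FDR-listed base in either library, so the 8 genes at the downstream end of the cluster had none of the 3 readouts.

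Gamma alternates were open in both libraries in 2 of 12 gamma A and 1 of 7 gamma B genes. Pcdhga12 had strengths of 1.04 in replicate 1 and 0.738 in replicate 2. Pcdhgb8 had 0.951 and 0.635, and Pcdhga3 had 0.529 and 0.420. Pcdhga11 at 0.844 and Pcdhgb7 at 0.542 were open in replicate 1 alone. Pcdhgb7, Pcdhga11, Pcdhgb8 and Pcdhga12 are the last 4 alternates before the gamma C-type genes, so the open gamma alternates other than Pcdhga3 lay next to each other at that end. The start of the noncoding record Gm26672 falls within the window of Pcdhga11, and its signal cannot be told apart from that gene's. The remaining 14 gamma alternates had no peak, no footprint and no FDR-listed base in either library.

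**Figure D2:**
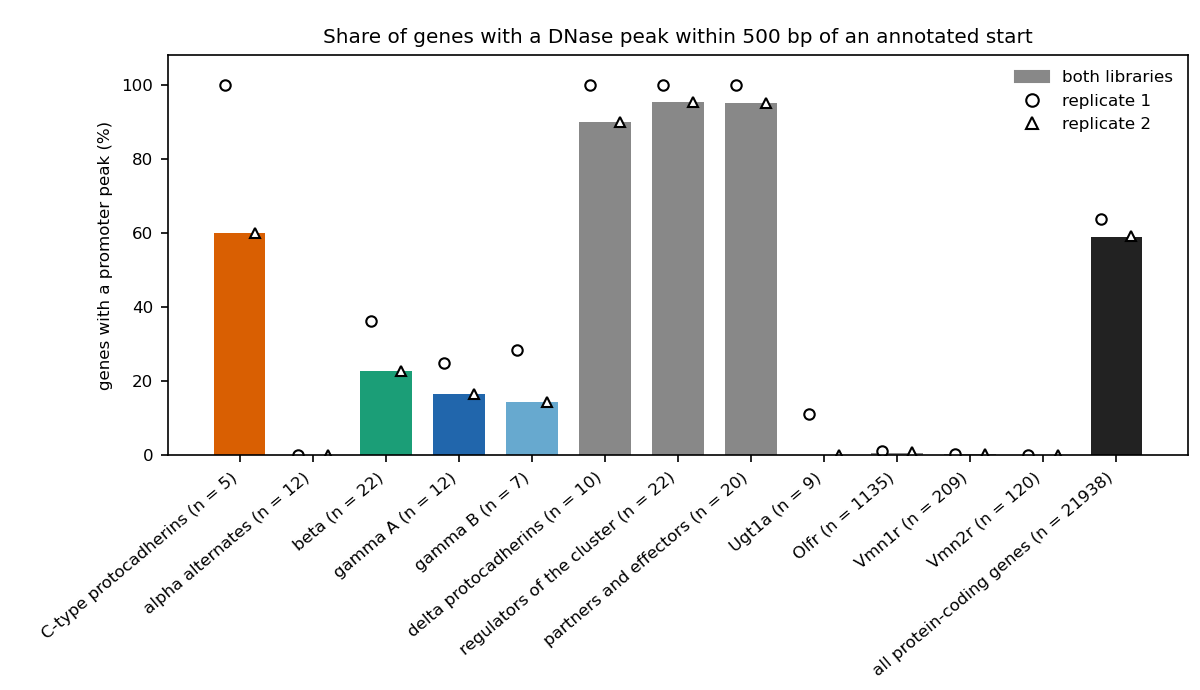
Percentage of genes with a promoter peak in both libraries (bars), in replicate 1 (circles) and in replicate 2 (triangles) for each class of clustered protocadherin, for comparison lists and for all protein-coding genes. C-type genes reach 60% in both libraries and alpha alternates 0%, against 58.8% over all protein-coding genes.

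Peaks of most alternates were centred just ahead of the start site. In the 5 beta genes open in both libraries, the peak's midpoint lay 21.5 to 81.5 bp before the nearest annotated start in replicate 1 and 32 to 77.5 bp before it in replicate 2. In Pcdhga3 it lay 16 and 16.5 bp before the start, and in Pcdhgb8 120.5 and 136.5 bp before it. Pcdhga12 differed, with midpoints 147.5 and 168 bp after the nearest start. At Pcdhac1 and Pcdhgc3 the midpoints lay 12.5 to 22.5 bp before the start. The peak of Pcdhac2 was far wider and ran over the first coding exon: it covered 37143401 to 37144560 in replicate 1 and 37143401 to 37144000 in replicate 2.

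Most alternate promoters carry a conserved sequence element with the core CGCT, near which CTCF binds. In the 200 bp before the 5′ end, CGCT read on the gene's own strand was present in 50 of 58 members (86.2%), against 40% of protein-coding genes. On either strand it was present in 55 of 58 (94.8%), against 56.7%, and in the whole window in 58 of 58, against 91.1%. The match nearest to the 5′ end began a median of 59 bp before it in the members (quartiles 75 and 40 bp), against 67 bp in protein-coding genes (quartiles 118 and 32 bp). The element is known to be missing from Pcdhac2, Pcdhb1, Pcdhgc4 and Pcdhgc5. In these data Pcdhac2 and Pcdhgc5 had no such match on the gene's strand, and in Pcdhb1 and Pcdhgc4 the nearest began 183 and 166 bp before the 5′ end. Matches were present in members with and without a peak, among them 10 of the 12 alpha alternates.

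Footprints fell on the CGCT core in some of the open members. In replicate 1 this was so for 9 of 15 members with both the own-strand core and a peak at the 5′ end (60%), against 41.6% of the 7238 protein-coding genes of that kind. The 9 were Pcdhac1, Pcdhb2, Pcdhb7, Pcdhb10, Pcdhb14, Pcdhga3, Pcdhga11, Pcdhgb8 and Pcdhgc3. In replicate 2 it was so for 3 of 9 (33.3%), namely Pcdhac1, Pcdhb10 and Pcdhga3, against 36.1% of 6775. The replicate 2 footprint of Pcdhb10 shared only 1 base with the core. The share was thus above the background in replicate 1 and near it in replicate 2. Matches to a CTCF core consensus, searched as a fixed run of letters, were found in the window of 1 member, Pcdha1, against 1.83% of protein-coding genes. With 1 mismatch allowed they were found in 2, Pcdha1 and Pcdha5, against 16.2%. Windows often covered more sequence in protein-coding genes, which had a median of 3 annotated starts, against 1 in the members. In the 200 bp before the 5′ end, equal in length for all genes, no member had a match of either kind. The shares of protein-coding genes there were 0.406% for the consensus and 2.87% with the mismatch. Sites that differ more from the consensus would be missed, so members without a match are not shown to lack CTCF sites.

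**Figure D3:**
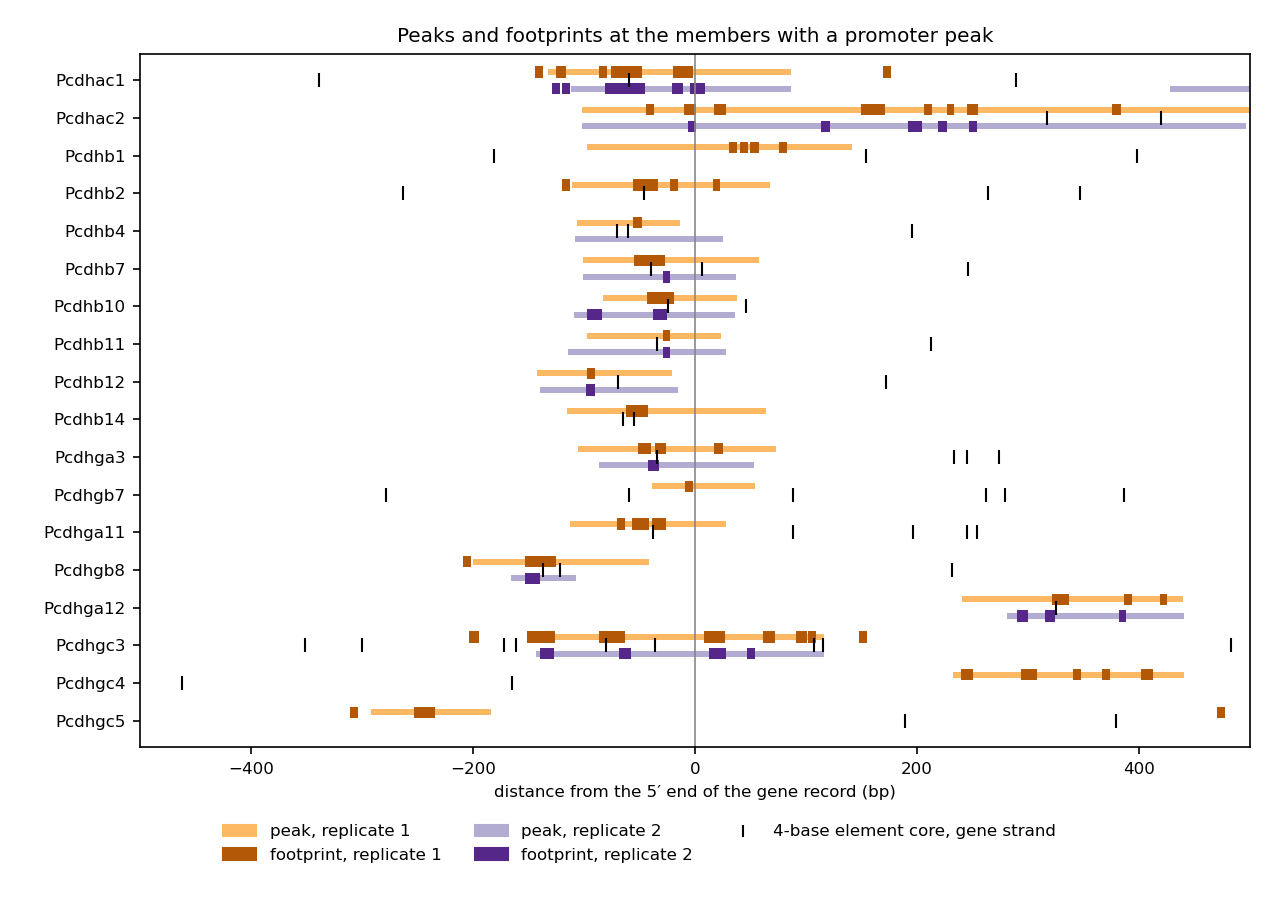
Peaks (light bars) and footprints (dark bars) of replicate 1 (orange, upper) and replicate 2 (purple, lower) within 500 bp of the 5′ end of each of the 18 members with a promoter peak, with ticks for the element core on the gene's strand. In most alternates with a peak, it is narrow and centred just before the 5′ end. Footprints of Pcdhac1, Pcdhb10 and Pcdhga3 overlap the core in both libraries, that of Pcdhb10 in replicate 2 by only 1 base.

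Across the whole locus, taken as the members plus 200 kb on either side (1311.69 kb), there were 80 peaks in replicate 1 and 57 in replicate 2. This came to 61.0 and 43.5 peaks per Mb, against 35.4 and 25 over the genome. From the first to the last member alone it was 53.7 in replicate 1 and 27.4 in replicate 2, the latter near the genome's 25. The flanks, which also hold promoters of other genes, had 50.1 and 55.1 upstream and 105 in each library downstream. Over the whole locus, peaks found in both libraries made up 52 of the replicate 1 list (65.0%) and 52 of the replicate 2 list (91.2%). Merging both libraries gave 82 regions, of which 50 were called in both, 27 in replicate 1 alone and 5 in replicate 2 alone. The peaks were spread unevenly, from none over the alpha alternates to 583 per Mb in replicate 1 over the gamma C-type genes.

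**Figure D4:**
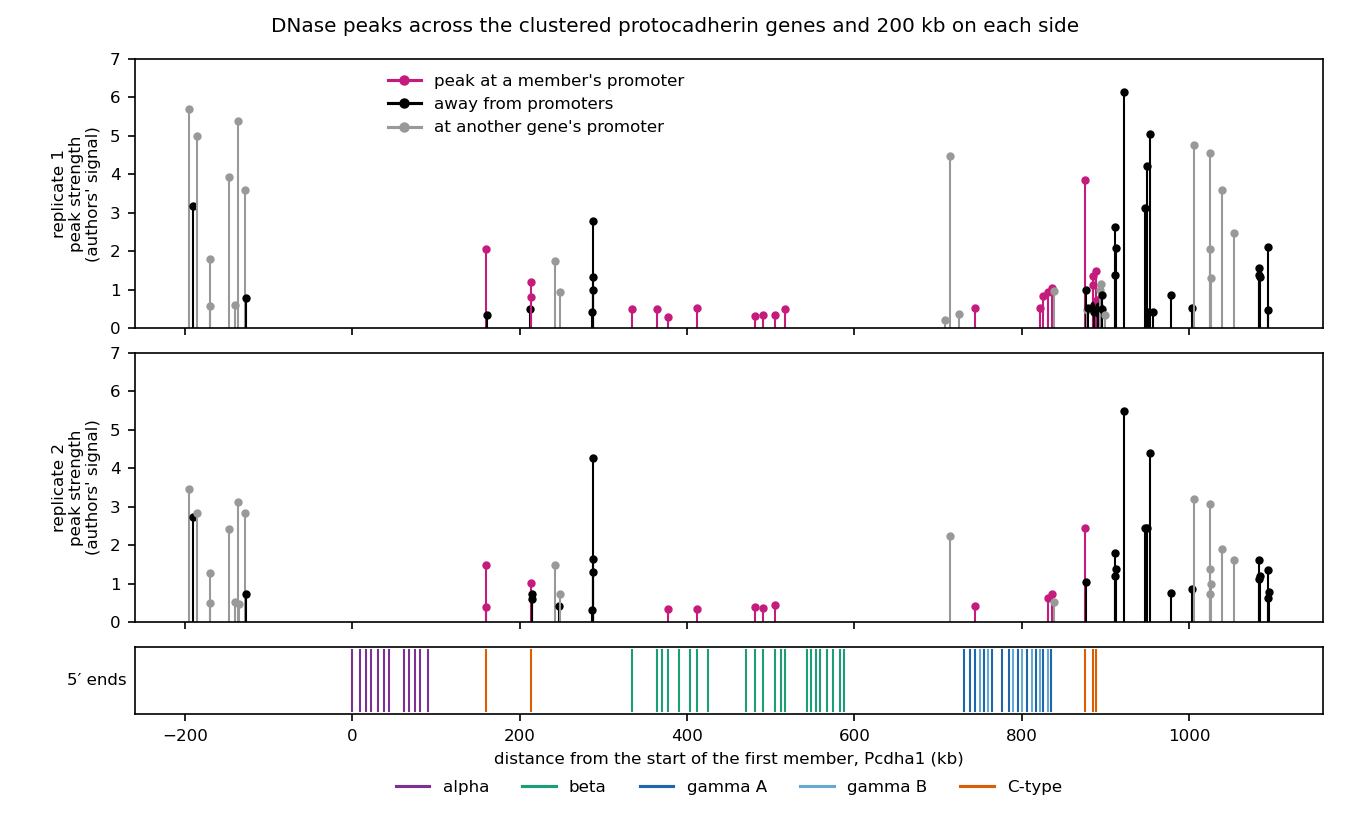
Peak strength (authors' signal) by distance in kb from the start of Pcdha1, for replicate 1 (top) and replicate 2 (middle), with the 5′ ends of the 58 members below. The alpha alternates carry no peak in either library, and the strongest peak of each library (6.13 in replicate 1, 5.48 in replicate 2) lies past the last gamma gene.

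The section from Pcdhgc3 to the last constant gamma exon, 36 kb long, differed most between the libraries. It held 21 peaks in replicate 1 and 3 in replicate 2, with 59 and 7 footprints and 8757 and 796 FDR-listed bases. The 3 regions called in both were the Pcdhgc3 promoter, a region in the Pcdhgc3 coding exon (37806941 to 37807161, 0.998 in replicate 1 and 1.04 in replicate 2) and a region in the untranslated part of the last shared exon (37841435 to 37841780, 1.40 and 1.21). The other 17 regions, between 37808361 and 37830028, were called in replicate 1 alone. By midpoint, 8 lay in coding exons of Pcdhgc3, Pcdhgc4 or Pcdhgc5, 1 in the untranslated part of a Pcdhgc4 exon, 4 in noncoding exons and 4 in introns, with strengths of 0.355 to 1.50. Over 75678 consecutive windows of this length across the primary chromosomes, 43 (0.0568%) held at least as many replicate 1 peaks without a replicate 2 peak as the 18 found here, a count added after this section had been seen. Only 22916 of those windows held any such peak, and the most in a window was 45. With 1 library per biosample, a difference in the tissue and one in the library cannot be told apart.

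**Figure D5:**
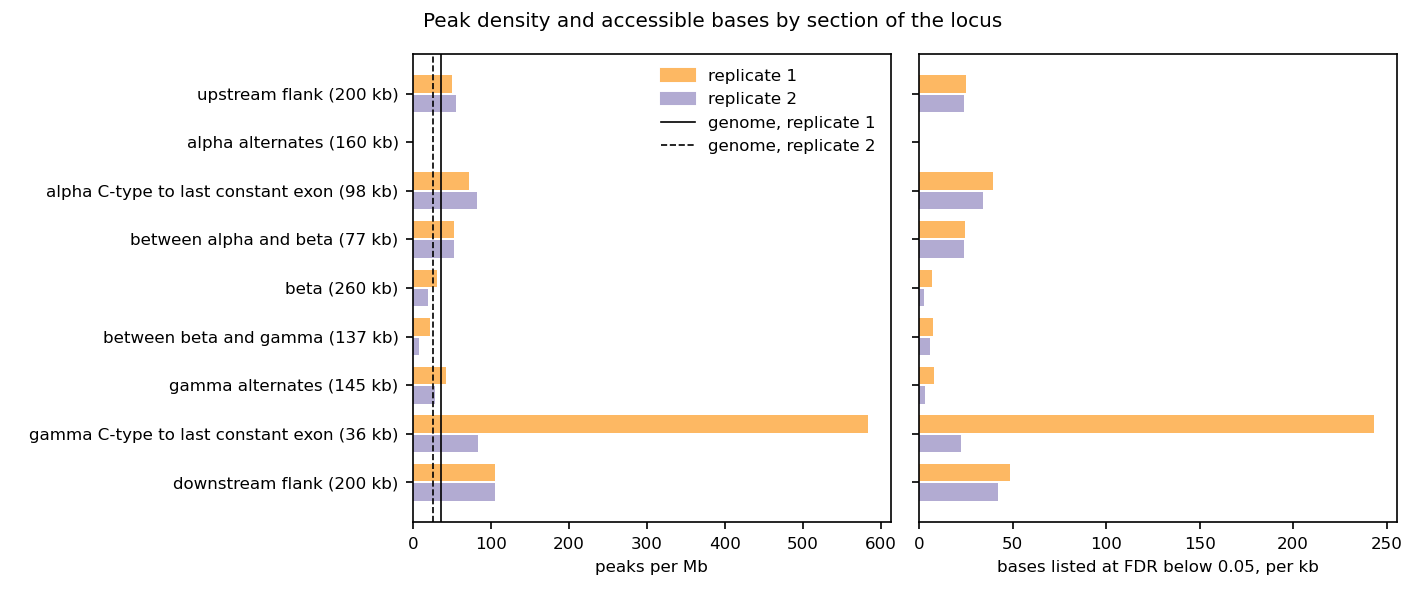
Peaks per Mb (left) and FDR-listed bases per kb (right) in each section of the locus, from upstream to downstream, for replicate 1 (orange) and replicate 2 (purple), with the genome's peak density as lines. The gamma C-type section reaches 583 peaks per Mb (replicate 1) and 83.3 (replicate 2), and the alpha alternates have none.

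Regions away from every annotated promoter numbered 35, of which 20 were called in both libraries. The strongest lay past the gamma cluster, within introns of Diaph1, which encodes a formin that builds actin filaments. A region at 37852161 to 37852400, 10.4 kb past the last member, measured 6.13 in replicate 1 and 5.48 in replicate 2, at percentiles 98.5 and 99.6 of all peaks. Another at 37883561 to 37883780, 41.8 kb past it, had 5.04 and 4.41 and held a match to the CTCF consensus. Matches of that kind were present in 5.17% of all replicate 1 peaks and 6.72% of all replicate 2 peaks. Both regions were stronger than any clustered protocadherin promoter in either library.

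Further regions of this downstream stretch were also called in both libraries. Those at 37880261 to 37880480 and 37877401 to 37877640 had strengths of 4.21 and 3.13 in replicate 1 and 2.46 each in replicate 2. Close behind the last exon, a region at 37842011 to 37842260 had 2.63 and 1.79, and its neighbour at 37842441 to 37842940 had 2.08 and 1.38. Farther out, 6 regions between 37908141 and 38025320 were called in both, with strengths of 0.482 to 2.12 in replicate 1 and 0.635 to 1.61 in replicate 2. Upstream of the alpha cluster, an intronic region of Tmco6 (36739881 to 36740040) had 3.17 and 2.74 and was the only one of the 8 strongest that lay on that side. Within 200 kb past the last member, 12 regions away from promoters were called in both libraries, 2 in replicate 1 alone and 1 in replicate 2 alone.

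An enhancer of the alpha cluster is known to lie downstream of its constant exons. Between the alpha and beta clusters 4 regions were called, all of them in both libraries and all between 37216701 and 37218480, 29.1 to 30.7 kb past the last alpha exon. The strongest, at 37218221 to 37218480, measured 2.80 in replicate 1 and 4.27 in replicate 2 (percentiles 90.8 and 98.7). Those at 37217361 to 37217580 and 37217761 to 37218100 had 1.35 and 0.991 in replicate 1 and 1.66 and 1.30 in replicate 2, and the region at 37217361 held a CTCF consensus match. The weakest, at 37216701 to 37216900, had 0.429 and 0.326. Replicate 2 was thus higher in 3 of the 4. Over open protein-coding promoters, which are not regions of this kind, replicate 1 was usually the higher. Over all peaks of each library the median strength was 0.663 in replicate 1 and 0.712 in replicate 2. Annotated introns at these places belong to the long records Gm37013, Gm37388 and Gm42416, which span the cluster.

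Between the alpha C-type promoters and the constant exons' end, 2 regions were shared that touch the starts of noncoding records. One at the start of Gm38097 (37172281 to 37172480) had 1.75 and 1.49, and one at the start of Gm10544 (37178301 to 37178900) had 0.938 and 0.729. In the gamma cluster, a region in the coding exon of Pcdhga12 (37768181 to 37768420) had 0.964 and 0.540. It touches another start of Gm26672. No region away from promoters was called within the beta cluster, the gamma alternates or the stretch of alpha alternates.

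Genes that act on the cluster had open promoters almost throughout. Of 22 genes for CTCF, cohesin with its loading and release factors, DNA methylation, its oxidation and related silencing, 21 were open in both libraries (95.5%), against 58.8% of protein-coding genes. Smc3, a cohesin subunit, had 9.40 in replicate 1 and 4.78 in replicate 2, and Stag1, another, had 8.51 and 5.40. Dnmt3a, a DNA methyltransferase, was open in replicate 1 alone at 1.51. Of 20 genes for binding partners and effectors, 19 were open in both (95%), with Pdcd10 at 8.08 and 4.74 and Wasf1, a regulator of branched actin, at 6.80 and 3.89. Ret, a receptor kinase, was open in replicate 1 alone.

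Against the 11 of 58 open clustered genes, 9 of 10 delta protocadherins, relatives that lie singly elsewhere in the genome, were open in both libraries (90%). Pcdh10 had 8.10 in replicate 1 and 4.40 in replicate 2, and Pcdh9 had 5.64 and 2.79. Pcdh20 was open in replicate 1 alone at 0.971. Windows of the clustered genes had a median GC content of 44.8% and a median of 1 annotated start, against 50.4% and 5 starts in the delta genes. Within the cluster, C-type windows had the highest median GC content (55.8%), with 45.2% in alpha, 41.5% in beta, 46.2% in gamma A and 47.2% in gamma B alternates, against 51.3% over protein-coding genes. The part of base composition and number of starts in these shares was not tested.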

How the data were processed

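DNase-seq libraries of frontal cortex (1 group, 2 libraries) were analysed from deposited files. Per the deposited notes, peaks, footprints and cut-rate FDRs were called by the authors on mm10 for each library separately. Their aligner, peak caller and thresholds are unstated in the sources used. Peak strength is a depth-normalised signal made by the authors, of unstated scale. The deposited FDR values (a p-value scale) are all below 0.05. In the footprint files each value is the constant 0.01, and only the positions served. Each library has 2 peak lists, and the longer was used, with the shorter (53068 and 36975 peaks) as an alternative.

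Promoter windows ran 500 bp on either side of each GENCODE M21 start, and the strongest peak overlapping by 1 bp gave the strength. Motifs were searched on both strands of GRCm38 as letters. Uniqueness is the share of 36-base stretches of the window around the 5′ end that occur once in the reference, counting both strands. Python 3.11.15 and numpy 2.4.6 were used, overlaps were checked against bedtools 2.31.1 in 2000 simulated windows, and 0 intervals ran past the end of a chromosome. Depth is unknown as read counts, so no counting intervals are given. No p-values were computed: the design holds no second group.

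Named in the text are, per class, the 2 members with the highest mean strength rank, all C-type genes, Pcdhb1, members without a peak, the 8 strongest shared regions away from promoters and regions past the last member, together with any other open member. Members, lists and rules were chosen with earlier results of these data known. The search of the 200 bp before the 5′ end, the comparison with genes of like strength and the count over windows of the genome were added after seeing the data. Sequences are not printed.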

Additional observations from a re-analysis of the deposited data

How the results depend on the processing

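Weak alternates depend on the peak list. With the shorter lists 3 members were open in both libraries (Pcdhac1, Pcdhac2 and Pcdhgc3, no alternates), with a median strength of 1.78, against 52.4% of protein-coding genes open in those lists. With the 66196 strongest peaks of each library 7 were open, with a median of 0.891, against 11 and 0.483 ± 0.0648 (SD, n = 2) in the longer lists. Each library taken by itself gave 11 to 18 open members and median strengths of 0.437 to 0.536. Footprints were then found in 10 to 18 members and FDR-listed bases in 13 to 21. Locus peaks numbered 57 to 80, and regions away from promoters 23 to 32. The share of locus peaks found in the other library, which needs both libraries, was 65 to 91.2% depending on the list. Flanks of 50 kb gave a mean of 44 locus peaks, against 68.5 ± 16.3 (SD, n = 2), and 12 shared regions away from promoters, against 20. CTCF consensus matches were found in 0 windows of 250 bp per side, 6 of 1000 bp, 0 at the 5′ end alone and 2 with 1 mismatch, against 1. In all, 41 alternative values stayed within 1.5 times a count or 1 SD of a mean, and 14 did not. Among the 41 were all values for CGCT and for window sizes of the peak counts. The 41 include 24 regions when noncoding promoters were not set aside, an alternative chosen after seeing the data. They also include the number of locus peaks and the share found in the other library, each for 1 library by itself. With 2 libraries such values lie within 1 SD of their mean by construction, so they show no stability. No paired analysis was possible because there is 1 group and the result comes from no test. The causes were not tested beyond the smaller lists and windows themselves. The shared beta peaks lie between percentiles 9.86 and 36.3 of all replicate 1 peaks and 7.79 and 19.4 of all replicate 2 peaks. Members without a peak are not shown to be closed.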

Other observations

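Genes that share the locus with the clustered protocadherins had promoter peaks of a wide range of strengths. Taf7, which encodes a subunit of the general transcription factor TFIID and lies between the beta and gamma clusters, had a promoter peak of 4.47 in replicate 1 and 2.23 in replicate 2. Its neighbour Slc25a2, a mitochondrial ornithine carrier gene, had 0.214 in replicate 1 and none in replicate 2. Upstream of the alpha cluster, Tmco6 reached 5.69 and 3.46, Zmat2 5.38 and 3.11, and the shared promoter of the histidyl-tRNA synthetase genes Hars and Hars2 3.93 and 2.43. A peak on the same side at the promoters of Ik and Ndufa2 had 4.99 and 2.83. Downstream of the gamma cluster, Diaph1 reached 4.77 and 3.19, and the promoter between the histone deacetylase gene Hdac3 and Rell2 reached 4.55 and 3.07. Weaker ones were those of Fchsd1 at 3.59 and 1.91, Arap3 at 2.46 and 1.62 and Wdr55 at 1.81 and 1.29. The Pcdhgc3 promoter, at 3.84 and 2.44, lay within this range. It was below Tmco6, Zmat2, Ik with Ndufa2, Diaph1 and Hdac3 in both libraries and above Slc25a2, Fchsd1, Arap3 and Wdr55.

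Clustered protocadherin alternates had a promoter peak in both libraries in 8 of 53 cases (15.1%), against 58.8% of all protein-coding genes and lower shares in other tandem gene families. Ugt1a genes, which like the alpha and gamma clusters pair variable first exons with shared ones, had a promoter peak in both libraries in 0 of 9 cases and in replicate 1 in 1 of 9. Olfactory receptor genes (Olfr) had one in both in 8 of 1135 cases (0.705%), vomeronasal Vmn1r genes in 1 of 209 and Vmn2r genes in 0 of 120.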
